A study of Mus musculus with 4 samples.

Results

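The cells described here are myelocyte-stage neutrophil precursors of mouse bone marrow that hold transcripts of secondary granule proteins. They were chosen from single-cell RNA counts by a rule on 9 genes. A member had at least 2 unique molecular identifiers (UMIs, each marking 1 captured RNA molecule) of Ltf, at least 10 of Ngp and at least 10 of Camp, at most 1 of Elane, and fewer than 3 of the 5 later genes Mmp8, Mmp9, Retnlg, Ly6g and Fpr1 detected. Of 37717 cells kept for analysis, 1266 met the rule.

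Neutrophils load their granules in sequence as they mature. Promyelocytes make the proteins of primary (azurophil) granules, such as myeloperoxidase and neutrophil elastase. Myelocytes and metamyelocytes then make those of secondary (specific) granules, such as lactoferrin and cathelicidin, under the transcription factor C/EBP epsilon, and gelatinase granules and chemokine receptors come later. The myelocyte is the last stage of the lineage that divides.

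The cells came from 6 female mice, 6 weeks old, of the genotype Tppp3CreER LSLTdTomato, in which Tppp3 drives a Cre recombinase that tamoxifen activates and recombination switches on tdTomato. A pair of mice received tamoxifen with rapamycin at postnatal days 0 and 3, a pair received rapamycin alone at postnatal day 30 and no tamoxifen (late rapamycin), and a pair received tamoxifen alone at postnatal days 0 and 3. Rapamycin inhibits mTORC1, the kinase complex that couples nutrients to protein synthesis. On each of 2 days, cells of 1 mouse per treatment were hashtagged with antibodies and run together as a pool of 3 mice, so the replicate number is the day. All 6 mice carry the same alleles, and no untreated mouse was among them. Late rapamycin mice therefore differ from tamoxifen mice in the drug, its timing and the absence of tamoxifen together. The labels name Lin-Sca+Kit+ cells, Lin-Sca-Kit+ cells and whole bone marrow, and the share of each in a pool sets how many maturing neutrophils can be seen. Tppp3 had 0 UMIs in the members of all 6 mice. Mice are numbered in a different order in the deposited hashtag table than in the labels. Treatments here follow the table, whose controls were taken to be late rapamycin. If the label numbers were hashtag numbers, tamoxifen with rapamycin and tamoxifen alone would be exchanged.

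Members numbered 189 and 147 in tamoxifen with rapamycin mice, 395 and 181 in late rapamycin mice, and 185 and 169 in tamoxifen mice. Their summed UMIs were 543325 and 710044 in tamoxifen with rapamycin mice, 2040295 and 881397 in late rapamycin mice, and 578068 and 750354 in tamoxifen mice. The median member held 3969 UMIs and 1515 genes, and the medians of single mice ran between 2561 and 4961 UMIs. Late rapamycin replicate 1 stood apart from the other 5 mice in many genes, and its values are given beside each result that rests on it. Its members had a median mitochondrial share of 0.669% of UMIs, against 0.336% to 0.417% in the other 5 mice. In all, 126 cell barcodes occurred in the runs of both days, none of them a member.

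The 3 rule genes that had to be present, and Lcn2, which the rule did not use, all encode antimicrobial granule proteins. Ltf encodes the iron-binding lactoferrin, Ngp the neutrophilic granule protein, Camp the precursor of the cathelicidin peptide and Lcn2 the siderophore-binding lipocalin 2. Camp, Ngp and Ltf lie within 1195 kb of each other on chromosome 9 (GRCm38), and Lcn2 lies on chromosome 2. The 250 bases before the start of each gene are shown because these transcripts define the cells together. Capitals mark every match, on either strand, to TTNNGNAA, letters common to many sites of C/EBP factors (RefSeq sequences on GRCm38.p6, written 5′ to 3′ on the strand of the gene).
Ltf, chr9:111019042-111019291, plus strand: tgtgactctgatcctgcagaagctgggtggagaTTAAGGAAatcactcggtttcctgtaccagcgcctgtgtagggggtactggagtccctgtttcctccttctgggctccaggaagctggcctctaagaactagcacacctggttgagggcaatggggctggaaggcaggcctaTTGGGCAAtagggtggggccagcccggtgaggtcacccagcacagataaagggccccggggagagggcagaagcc
Ngp, chr9:110419558-110419807, plus strand: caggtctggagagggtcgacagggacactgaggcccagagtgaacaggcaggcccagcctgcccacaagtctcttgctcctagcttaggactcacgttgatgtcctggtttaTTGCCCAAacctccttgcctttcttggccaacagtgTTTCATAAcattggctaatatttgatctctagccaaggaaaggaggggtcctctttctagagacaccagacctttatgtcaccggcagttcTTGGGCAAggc
Camp, chr9:109849457-109849706, minus strand: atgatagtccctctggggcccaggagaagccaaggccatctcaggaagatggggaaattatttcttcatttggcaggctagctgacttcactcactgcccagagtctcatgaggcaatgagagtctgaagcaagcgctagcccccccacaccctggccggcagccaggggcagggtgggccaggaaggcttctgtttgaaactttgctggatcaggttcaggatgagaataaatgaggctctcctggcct
Lcn2, chr2:32387740-32387989, minus strand: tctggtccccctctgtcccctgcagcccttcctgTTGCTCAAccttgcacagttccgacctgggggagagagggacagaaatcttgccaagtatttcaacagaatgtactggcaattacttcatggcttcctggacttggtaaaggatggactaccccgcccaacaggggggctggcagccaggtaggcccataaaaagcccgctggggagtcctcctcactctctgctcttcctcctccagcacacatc
The window of Ltf held 2 matches, which begin 217 and 75 bases before the start. That of Ngp held 3, at 138, 102 and 11 bases, and that of Lcn2 held 1, at 216 bases. That of Camp held 0 matches, which says only that these letters are not in this window. The motif is short and common, and 36.8% of 32851 promoter windows of the same length held it.

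Each of the 1266 members held all 4 markers. Ltf had 3, 44 and 156 UMIs per member (lowest, median and highest). Ngp had 13, 185 and 523, Camp 10, 172 and 598, and Lcn2 6, 61 and 196 UMIs per member. Together the 4 genes made up a median of 12.6% of a member's UMIs. S100a8 and S100a9, the calcium-binding subunits of calprotectin in neutrophil cytosol, made up a median of 20.1%. Per 10000 UMIs, the middle 80% of members spanned 62.5 to 176 for Ltf, 281 to 661 for Ngp, 225 to 699 for Camp and 86.7 to 243 for Lcn2.

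Each bound was examined among cells that met the rest of the rule. Among these, the lower bounds on Ltf, Ngp and Camp hardly touched any cell. No such cell lay at 2 or at 1 Ltf UMI, and 1 such cell each lay just outside the bounds of Ngp and Camp. The bounds on Elane and on late genes passed through occupied ranges. Of the members, 176 held 1 Elane UMI, and 49 cells with 2 were left out. The 498 members with 2 late genes faced 791 cells with 3, and Lcn2 stood at 17294 CPM (UMIs scaled to a total of 1000000) in those 498 and at 17155 CPM in those 791. Pooled over mice, members just inside the late bound and cells just outside it were thus alike in Lcn2. Single mice were not compared at this bound. Late rapamycin replicate 1 had the most members, 45.8% of them with 2 late genes. Its members had the highest Lcn2, at 18930 CPM against 12419 to 14980 CPM in the other 5 mice.

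Members were set beside a gate on either side. Elane-high cells (at least 10 Elane and 10 Mpo UMIs and at most 1 Ltf UMI, 3305 cells) are earlier, and late-gene cells (at least 3 of the 5 late genes and at most 1 Elane UMI, 3846 cells) are later. Because counts of the same cells defined these gates, their levels are a description and carry no test. Levels are CPM of the UMIs summed over a gate in a mouse, given as the lowest, median and highest of 6 mice in the order Elane-high, member, late-gene. They are shares of each gate's RNA, not molecules per cell, and median depth was 9638, 3969 and 2180 UMIs per cell in the 3 gates.

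Secondary granule transcripts were low in Elane-high cells and abundant in members and late-gene cells. The 8 genes of the list that the rule did not use summed to 487 to 1685 CPM in Elane-high cells, 25013 to 33270 CPM in members and 18491 to 31062 CPM in late-gene cells. Lcn2 stood at 25.6, 33.9 and 353 CPM, then at 12419, 14074 and 18930 CPM in members, then at 10402, 10784 and 18884 CPM. Chil3, which encodes the chitinase-like protein Ym1, stood at 16.7, 43.4 and 242 CPM, then at 6419, 7396 and 8324 CPM in members, then at 1649, 2181 and 3349 CPM. Every mouse had more Chil3 in members than in either neighbour. Cd177, a surface glycoprotein of secondary granules, stood at 758, 882 and 1191 CPM in members and at 701, 853 and 1291 CPM in late-gene cells, so its ranges overlapped there. Hp (haptoglobin), Pglyrp1 (a peptidoglycan-binding protein) and Itgb2l also overlapped between members and late-gene cells. Orm1, an acute-phase glycoprotein, stood at 67.2, 232 and 256 CPM in members and at 26.5, 49.5 and 74.7 CPM in late-gene cells, and was higher in the members of all 6 mice.

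Primary granule transcripts were scarce in members. The list has 7 genes that the rule did not use, among them Serpinb1a, which encodes a protease inhibitor. They summed to 16672 to 20007 CPM in Elane-high cells, 894 to 1968 CPM in members and 500.2 to 1272 CPM in late-gene cells. Much of the sum in members was Serpinb1a, at 721, 823 and 1270 CPM. Mpo (myeloperoxidase) stood at 4921, 7116 and 7560 CPM in Elane-high cells, at 18.3, 42.7 and 60.5 CPM in members and at 19.8, 45.5 and 78.0 CPM in late-gene cells. Elane-high cells were chosen by Mpo as well as Elane, so the high Mpo there was set in advance, and so was part of the sum. Ctsg (cathepsin G) stood at 2605, 3059 and 4021 CPM, then at 8.0, 16.8 and 39.8 CPM in members. These residues were near those of B cells. With every cell thinned to 2000 UMIs, which leaves 1163 members, 3305 Elane-high, 2153 late-gene and 667 B cells, 6.71% of members and 7.95% of B cells held a UMI of Mpo, a gene that B cells lack, and 3.44% of members and 4.50% of B cells held 1 of Ctsg. Without thinning the shares were 13.2% and 7.74% for Mpo and 6.08% and 3.87% for Ctsg, at median depths of 3969 UMIs in members and 1611 UMIs in B cells. Prtn3 (proteinase 3) differed, with 25.1% of members against 9.15% of B cells (38.1% and 9.90% without thinning), and late rapamycin replicate 1 set that value: 51.7% of its members held a UMI, against 10.5% to 14.0% in the other 5 mice. Serpinb1a, the inhibitor of these proteases, went the other way from them, at 382, 416 and 554 CPM, then 721, 823 and 1270 CPM in members, then 381, 425 and 967 CPM.

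Transcription factors differed in which gate held most of them. Cebpe, the factor of secondary granule genes, stood at 88.1, 106 and 136 CPM, then at 451, 503 and 547 CPM in members, then at 162, 211 and 245 CPM, and the 3 ranges did not overlap. After thinning, 17.8% of Elane-high cells, 61.3% of members and 32.0% of late-gene cells held a Cebpe UMI, against 0.900% of B cells. Without thinning the shares were 48.8%, 78.5%, 31.1% and 1.11%. Cebpa, which acts at the entry to the lineage, was at 60.3, 67.4 and 69.5 CPM in Elane-high cells and at 1.47, 3.11 and 5.33 CPM in members. Myc, Myb and Gfi1 were also lower in members than in Elane-high cells in all mice. Cebpd stood at 189, 210 and 243 CPM in members and at 230, 290 and 319 CPM in late-gene cells, and Spi1 (PU.1) at 363, 410 and 521 CPM and 482, 586 and 669 CPM. Irf8, a factor of monocytes and dendritic cells, was at 2.67 to 5.39 CPM in members.

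Fcnb, which encodes the lectin ficolin B, was also highest in members in all 6 mice. It stood at 50.2, 75.6 and 157 CPM, then at 526, 815 and 943 CPM in members, then at 44.0, 59.0 and 118 CPM, and 60.0% of thinned members held a UMI against 8.90% of Elane-high cells and 11.8% of late-gene cells (71.9%, 20.03% and 10.6% without thinning). Ms4a3, a membrane gene of granulocyte-monocyte progenitors, had medians of 1091 CPM in Elane-high cells, 131 CPM in members and 14.3 CPM in late-gene cells.

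**Figure D1:**
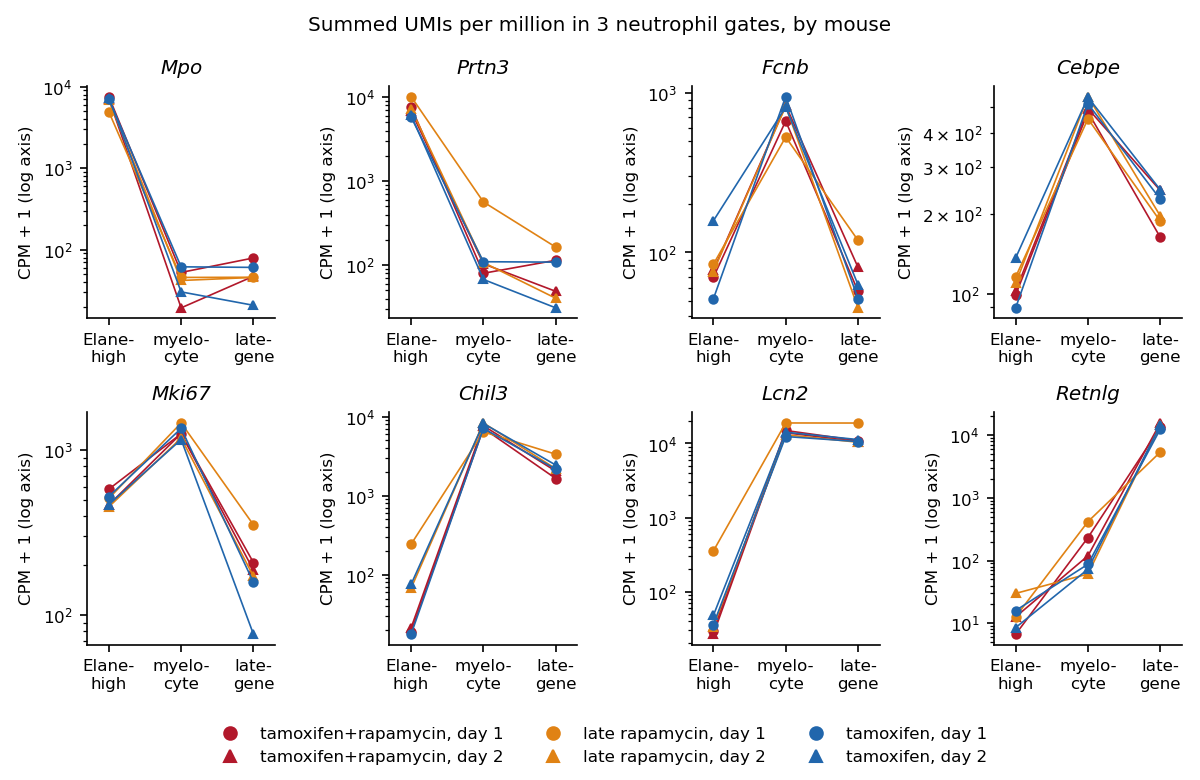
Each line is 1 mouse. The y axis gives CPM + 1 on a log scale, from UMIs summed over the Elane-high, myelocyte-stage and late-gene cells of that mouse. Cebpe and Fcnb peak in the middle gate in all 6 mice. Prtn3 is highest in the left gate, and so is Mpo, which was used to define that gate. Retnlg, which the rule used, is highest in the right one.

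Cell cycle transcripts of members were rich in G2/M genes and poor in S phase genes. The 24 genes of the G2/M list summed to 4781 to 5499 CPM in Elane-high cells, 8770 to 10187 CPM in members and 1921 to 3458 CPM in late-gene cells. The 20 genes of the S phase list summed to 2657 to 3330 CPM, then 966 to 1394 CPM in members, then 363 to 565 CPM. Mki67, the proliferation antigen Ki-67, stood at 452, 487 and 578 CPM, then at 1157, 1255 and 1458 CPM in members, then at 75.6, 179 and 351 CPM. The replication helicase gene Mcm5 was at 118, 123 and 136 CPM in Elane-high cells and at 40.5, 50.6 and 61.3 CPM in members, while Rrm2, a ribonucleotide reductase subunit that is also an S phase gene, had overlapping ranges of 118 to 306 CPM and 142 to 239 CPM.

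Genes of the G1 to S transition differed by member of the family. Cdk4 stood at 280, 288 and 309 CPM in Elane-high cells and at 22.7, 29.3 and 44.2 CPM in members. Cdk6 stood at 724, 965 and 1001 CPM and at 75.5, 140 and 185 CPM, and the cyclin gene Ccnd2 at 138, 171 and 187 CPM and at 5.63, 17.0 and 27.7 CPM. Ccnd3, the other D-type cyclin of blood cells, was at 65.8, 80.5 and 128 CPM in Elane-high cells, at 287, 354 and 459 CPM in members and at 402, 441 and 532 CPM in late-gene cells. Of the inhibitors of cyclin-dependent kinases, Cdkn2d (p19) stood at 17.8, 27.0 and 53.8 CPM, then at 207, 212 and 352 CPM in members, and Cdkn1b (p27) at 22.4, 33.0 and 37.1 CPM, then at 69.0, 85.5 and 97.5 CPM. Cdkn2c (p18) was highest in members, at 27.6, 44.3 and 59.1 CPM against 8.01 to 18 CPM before and 2.58 to 10.1 CPM after.

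Genes of the NADPH oxidase, which makes superoxide in phagocytes, had overlapping sums in members and late-gene cells. The 6 genes summed to 847 to 1379 CPM in Elane-high cells, 6098 to 7090 CPM in members and 5778 to 6734 CPM in late-gene cells. Cybb (gp91phox), the catalytic subunit, stood at 38.1, 55.0 and 127 CPM, then at 2047, 2219 and 2562 CPM in members, then at 1354, 1761 and 1857 CPM. Lyz2 (lysozyme) and Anxa1 (annexin A1) overlapped between members and late-gene cells, whereas S100a6 stood at 290, 444 and 1502 CPM in members and at 2651, 3514 and 5827 CPM in late-gene cells.

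The 18 genes of the myeloid receptor list summed to 1009 to 1204 CPM in Elane-high cells, 849.8 to 1592 CPM in members and 1916 to 2609 CPM in late-gene cells. Their genes varied, and the ranges of Il1r2 (28.0 to 174 CPM in members, 152 to 376 CPM in late-gene cells) and Csf2rb overlapped. Cxcr2, the chemokine receptor for exit from the marrow, stood at 69.0, 94.6 and 315 CPM in members and at 562, 617 and 815 CPM in late-gene cells. Csf3r, the receptor of G-CSF, stood at 106, 128 and 141 CPM and at 356, 525 and 650 CPM, and the chemokine gene Ccl6 at 0 to 9.8 CPM and 31.0 to 605 CPM. Ccl6 of members was at the level of Elane-high cells. The rule genes Retnlg, Mmp8 and Fpr1 were by construction low in members.

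Transcripts of protein synthesis and folding took a much smaller share of members than of Elane-high cells. The 86 ribosomal protein genes made up 18.9% to 21.6% of the UMIs of Elane-high cells, 3.70% to 6.72% of those of members and 3.68% to 4.97% of those of late-gene cells. The 13 genes of the heat shock and cold list summed to 8800 to 14676 CPM, then 1714 to 2206 CPM in members. The 21 genes of mTOR complexes, their regulators and targets summed to 3886 to 4100 CPM, then 1714 to 1962 CPM in members, of which Rps6, itself a ribosomal protein gene, was 369, 460 and 721 CPM. Rictor, the scaffold of mTORC2, had overlapping ranges of 38.7 to 66.5 CPM and 49.5 to 74.6 CPM, while Rptor, the scaffold of mTORC1, was at 68.2 to 91.4 CPM in Elane-high cells and at 19.6 to 46.0 CPM in members.

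Members were not uniform in the cell cycle. The 1163 members with at least 2000 UMIs were thinned to 2000, which left out 103 shallower members, and UMIs of the G2/M list were counted without Hmgb2, which nearly every member held. With Hmgb2, 96.9% to 99.4% of thinned members and 96.2% to 100% of unthinned members of a mouse held any G2/M UMI. At least 5 such UMIs were found in 654 members, 1 to 4 in 268 and none in 241. The cut fell at no gap in the counts, with 36 cells at 3, 38 at 4, 29 at 5 and 27 at 6 UMIs. The share with at least 5 was 49.7% and 60.8% in tamoxifen with rapamycin mice, 59.5% and 52.2% in late rapamycin mice, and 61.1% and 50.6% in tamoxifen mice, and the 3 treatments overlapped. In Elane-high cells the share was 47.5% to 63.7%, but those cells averaged 6.09 to 7.04 such UMIs against 8.85 to 11.7 in members.

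Members without a G2/M UMI and members with at least 5 differed in several genes, not all of them in the order of the gates. These classes were cut from the cells' own counts, so the values are a description over 6 mice. Ltf had a median over mice of 94.6 per 10000 UMIs in members with at least 5 G2/M UMIs and 146 in members with none, and was lower with G2/M UMIs in all 6 mice. The same held for Lcn2 (129 and 176 per 10000), for Ifitm6, of the interferon-induced transmembrane family (8.04 and 26.5), for Anxa1 (30.5 and 46.2) and for Mxd1, a repressor of MYC targets (1.48 and 3.71). Hp was level (16.3 and 15.8, higher with G2/M UMIs in 3 of 6 mice). Chil3, at 83.8 and 63.6 per 10000, was higher in members with at least 5 G2/M UMIs in all 6 mice. So were the chromatin gene Hmgn2 (15.3 and 7.14), the inhibitor Cdkn2d (2.84 and 1.40), Ms4a3 (1.72 and 0.394) and Prtn3 (0.989 and 0.445). Camp did not separate the classes, at 541 and 547 per 10000. Cebpe was higher with G2/M UMIs in 4 of 6 mice and Fcnb in 5 of 6. By gate medians, Ms4a3 and Prtn3 were indeed early and Ifitm6 late. Others broke that order. The medians of Ltf and Lcn2 were lower in late-gene cells (8843 and 10784 CPM) than in members (10441 and 14074 CPM). Chil3 was highest in members, and Cdkn2d was higher in members than in Elane-high cells.

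**Figure D2:**
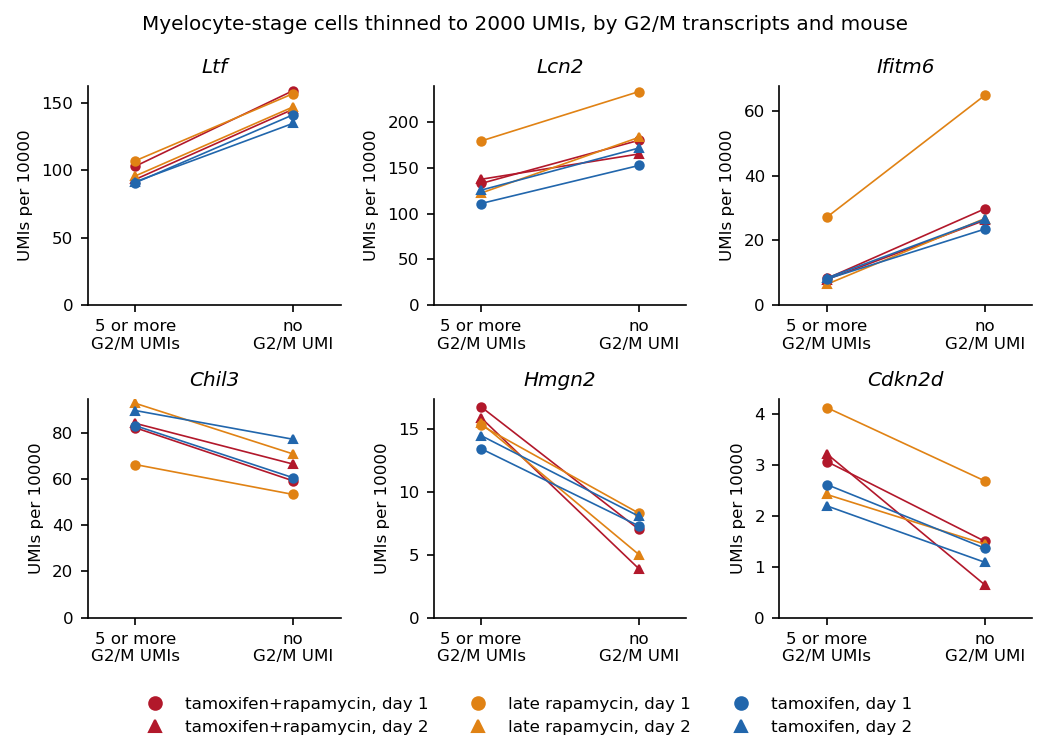
Each line is 1 mouse. The y axis gives UMIs per 10000 in myelocyte-stage cells thinned to 2000 UMIs, for cells with at least 5 G2/M UMIs (left) and with none (right), Hmgb2 not counted. Ltf, Lcn2 and Ifitm6 are lower on the left in all 6 mice, and Chil3, Hmgn2 and Cdkn2d are higher there in all 6.

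Some members carried genes of other cell types. Among them, 95 held 3 or more detected genes of another type's marker list, and these had a median of 7039 UMIs against 3831 in the others. They numbered 9 and 11 in tamoxifen with rapamycin mice, 32 and 18 in late rapamycin mice, and 15 and 10 in tamoxifen mice. The list of stem and progenitor genes accounted for 63 of them, B cell genes for 17, erythroid genes for 12 and monocyte genes for 8, and a cell can meet several lists. Summed over the members of a mouse, stem and progenitor genes came to 204 and 348 CPM in tamoxifen with rapamycin mice, 152 and 403 CPM in late rapamycin mice, and 218 and 183 CPM in tamoxifen mice. The 7 monocyte genes were at 587 to 787 CPM, 94.96% of them from Ly6c2. B cell genes were at 60.3 to 917 CPM and erythroid genes at 44.2 to 972 CPM, the highest value of B cell genes in tamoxifen replicate 2 and that of erythroid genes in tamoxifen replicate 1. Prg2 and Epx of eosinophils, Ncr1 of NK cells, Siglech, Cd209a and Xcr1 of dendritic cells and Ppbp of platelets were at 0.

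Members of late rapamycin replicate 1 differed from those of all other mice in a set of transcripts. After adding 10 CPM, 13 genes lay at least 4-fold above and 4 at least 4-fold below all other 5 mice. The same count gave 3 above for tamoxifen replicate 2, 2 above for tamoxifen replicate 1, and 0 for the remaining mice. The 5 genes of the tamoxifen mice were immunoglobulin, J chain and globin genes: Igkc had UMIs in 11 members of tamoxifen replicate 2, and Hbb-bs in 4 members of tamoxifen replicate 1. The 13 high genes of late rapamycin replicate 1 had UMIs in 44 to 333 of its 395 members. They were chosen after their values were seen.

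Lipg, the gene of endothelial lipase, stood at 510 CPM in late rapamycin replicate 1 and at 5.19 to 14.7 CPM in the other 5 mice. It had UMIs in 333 of 395 members there and in 2 to 10 members of each other mouse. The interferon-induced gene Ifitm1 stood at 790 CPM against 22.7 to 67.5 CPM, Wfdc17 at 177 CPM against 1.84 to 5.19 CPM, and the ectoenzyme gene Cd38 at 85.8 CPM against 0 to 6.66 CPM. Prtn3 stood at 565 CPM against 66.6 to 109 CPM. Elane-high cells of that mouse held 10171 CPM of Prtn3, against 5799 to 7673 CPM in the others. Whether RNA from other cells set the Prtn3 of members was not tested. Cstdc5, Stfa1 and Stfa2l1 of the stefin cluster were also high there, but near-identical copies leave their counts uncertain. On the low side, Fmnl2, a formin that builds actin filaments, stood at 18.6 CPM against 479 to 569 CPM, the adhesion gene Alcam at 33.8 CPM against 180 to 298 CPM, and the rule gene Ly6g at 32.8 CPM against 254 to 501 CPM.

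Granule genes of that mouse stood apart in both directions. Camp, Ngp and Ltf among them are rule genes and are given as levels only. Camp stood at 27453 CPM in late rapamycin replicate 1 and at 52274 to 57500 CPM in the others, and Ngp at 37070 CPM against 45067 to 52373 CPM. Lcn2 stood at 18930 CPM against 12419 to 14980 CPM, and Hp at 2663 CPM against 1334 to 1647 CPM. Ltf, at 11464 CPM, lay inside the range of 10098 to 11838 CPM of the others. Ifitm6 stood at 3738 CPM against 1121 to 1636 CPM, Cxcr2 at 315 CPM against 69.0 to 116 CPM and Cebpb at 232 CPM against 73.6 to 117 CPM, and Orm1 was lower at 67.2 CPM against 131 to 256 CPM.

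Most of these genes also stood apart in the late-gene cells of that mouse, and several in its Elane-high cells, so the differences were not particular to members. In late-gene cells Lipg stood at 470 CPM in late rapamycin replicate 1 and at 0 to 11.5 CPM in the others, Ifitm1 at 2707 CPM against 113 to 164 CPM, and Fmnl2 at 19.96 CPM against 347 to 429 CPM. Wfdc17 stood there at 1490 CPM against 17.7 to 102 CPM, Cd38 at 196 CPM against 1.16 to 12.6 CPM, and Alcam at 44.4 CPM against 196 to 333 CPM. In Elane-high cells Ifitm1 stood at 1010 CPM against 50.7 to 88.9 CPM, Lipg at 57.9 CPM against 0 to 0.56 CPM and Alcam at 36.9 CPM against 148 to 180 CPM. Of the 13 high genes, only Arhgap24 and Stfa2l1 did not stand apart in late-gene cells, at 388 CPM against 265 to 391 CPM and 139 CPM against 128 to 213 CPM. Ngp was above the others there, at 31743 CPM against 25399 to 30217 CPM. Without the members that held genes of other cell types, Lipg stood at 538.5 CPM against 2.06 to 16.4 CPM and Fmnl2 at 12.3 CPM against 477 to 565 CPM.

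**Figure D3:**
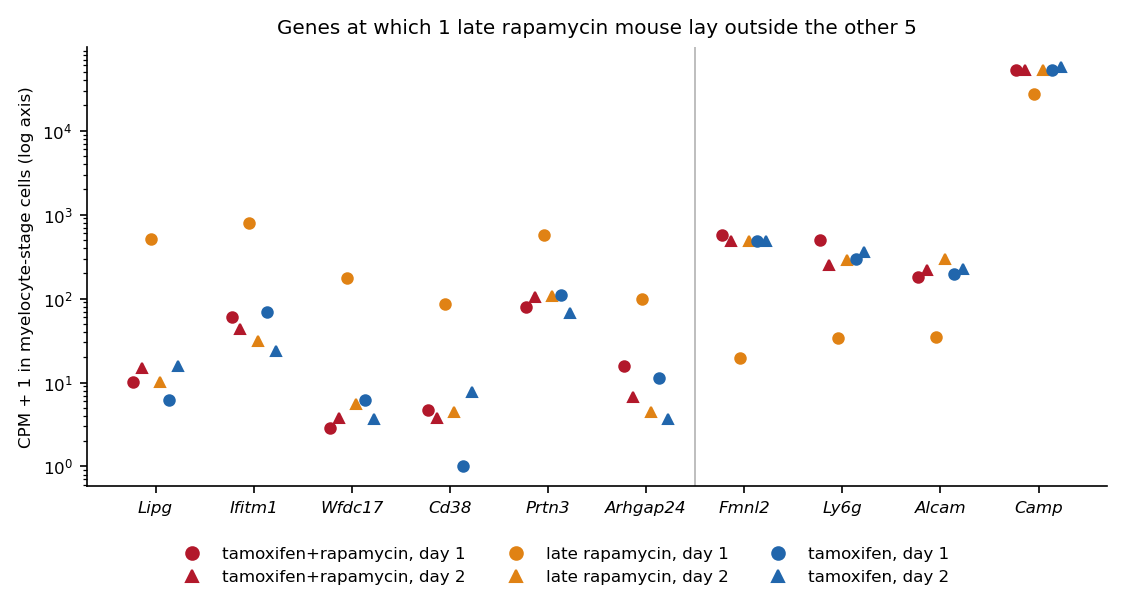
CPM + 1 in myelocyte-stage cells on a log axis, 1 point per mouse, for 6 genes high and 4 genes low in late rapamycin replicate 1 (orange circle). Of the genes shown, the gap between the orange circle and the nearest other mouse is widest at Lipg among the high genes and at Fmnl2 among the low ones. Ly6g and Camp are genes that the membership rule used.

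Members were most frequent in late rapamycin replicate 1. They made up 3.03% and 2.42% of kept cells in tamoxifen with rapamycin mice, 5.59% and 2.97% in late rapamycin mice, and 2.93% and 2.85% in tamoxifen mice. Only the interval of late rapamycin replicate 1, 5.06% to 6.15% (exact 95% Clopper-Pearson, counting error only), lay clear of those of all other mice. The difference between tamoxifen with rapamycin and tamoxifen was -0.164 percentage points (exact two-sided permutation test between 2 and 2 mice, p = 1.0), that between late rapamycin and tamoxifen 1.39 points (p = 0.33, the smallest possible) and that between tamoxifen with rapamycin and late rapamycin -1.55 points (p = 0.667). Within days, late rapamycin minus tamoxifen was 2.66 points on day 1 and 0.122 points on day 2. Without late rapamycin replicate 1 the difference was 0.0838 points. The late bound of the gate rests in part on Ly6g and Retnlg, which differed in that mouse. After thinning, 33.2% of its late-gene cells held a Ly6g UMI, against 64.3% to 72.9% in the other mice. Retnlg was found in 42.6% of its thinned members, against 8.39% to 15.2%. Its late-gene cells had a median of 3419.5 UMIs, against 1574 to 1937. Whether the bound fell at the same stage there was not tested, which limits its shares, ratios and late-gene levels.

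The neighbouring gates also differed between mice. Late-gene cells made up 8.09% and 8.56% of kept cells in tamoxifen with rapamycin mice, 15.4% and 12.2% in late rapamycin mice, and 7.20% and 9.04% in tamoxifen mice, so late rapamycin mice lay above the others on both days (exact permutation test against tamoxifen, p = 0.33). Elane-high cells made up 8.94% and 7.45%, 15.8% and 6.60%, and 7.48% and 5.06% of kept cells in the same order of treatments. Per 100 late-gene cells there were 37.5 and 28.2 members in tamoxifen with rapamycin mice, 36.2 and 24.5 in late rapamycin mice, and 40.7 and 31.5 in tamoxifen mice. The treatments overlapped across days, while within each day tamoxifen with rapamycin was below tamoxifen (by 3.16 on day 1 and 3.31 on day 2) and so was late rapamycin (by 4.42 and 7.07), with an exact permutation p of 0.667 for each. Tamoxifen with rapamycin exceeded late rapamycin by 1.26 and 3.76 on these days (p = 0.667 by the same exact test). Per 100 Elane-high cells there were 33.9 and 32.5 members in tamoxifen with rapamycin mice, 35.3 and 45.0 in late rapamycin mice, and 39.1 and 56.3 in tamoxifen mice. In this ratio, too, each comparison had 1 sign on both days. Tamoxifen with rapamycin minus tamoxifen was -5.18 and -23.9 (exact permutation test, p = 0.33), late rapamycin minus tamoxifen was -3.84 and -11.3 (p = 0.667, exact), and tamoxifen with rapamycin minus late rapamycin was -1.34 and -12.6 (p = 0.33, exact). B cells, counted in the same pools, numbered 40 in late rapamycin replicate 1 against 159 to 536 in the other mice, and whether sorting set these shares was not tested.

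**Figure D4:**
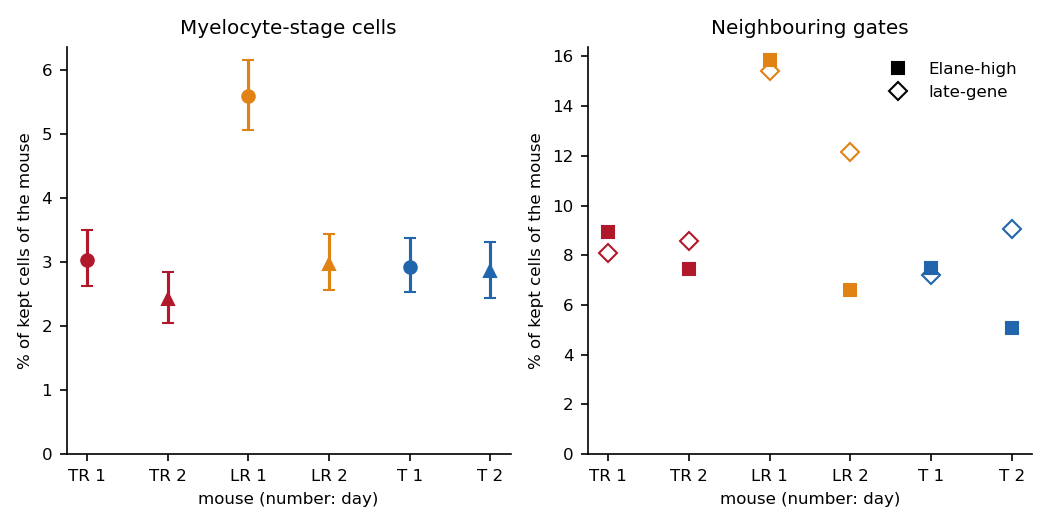
Left, myelocyte-stage cells as a percentage of the kept cells of each mouse, with exact 95% intervals for counting error. Right, Elane-high (squares) and late-gene cells (diamonds) on the same scale of kept cells. TR is tamoxifen with rapamycin, LR late rapamycin and T tamoxifen, and the number is the day. Late rapamycin replicate 1 has the highest share in all 3 gates.

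Between treatments, UMIs of members were summed per mouse and 7021 genes were tested in 1 fit with day as a block (edgeR quasi-likelihood test, Benjamini-Hochberg adjustment, threshold 0.05). P-values rest on the spread between the 2 mice of a treatment that is left after the shift shared by mice of a day is removed. That spread was estimated over all treatments of the fit together. The test of tamoxifen with rapamycin against tamoxifen therefore also carries the spread of the late rapamycin mice. With tamoxifen plus rapamycin against tamoxifen alone, Tesc was higher and no gene was lower, which is 0.0142% of the genes tested, and 171 genes (2.44%) had an unadjusted p under 0.05. DESeq2 called 0 genes.

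Tesc encodes tescalcin, a calcium-binding EF-hand protein. It stood at 55.2 and 56.3 CPM in tamoxifen with rapamycin mice, at 11.3 and 9.08 CPM in late rapamycin mice, and at 3.46 and 8.0 CPM in tamoxifen mice. These rest on 30 and 40 UMIs in tamoxifen with rapamycin mice, 23 and 8 in late rapamycin mice, and 2 and 6 in tamoxifen mice. UMIs were found in 26 of 189 and 29 of 147 members of tamoxifen with rapamycin mice, in 21 of 395 and 8 of 181 of late rapamycin mice, and in 2 of 185 and 6 of 169 of tamoxifen mice. The log2 fold change against tamoxifen was 3.22 ± 0.48 (SE, n = 2 mice each, edgeR adjusted p = 0.04). Against late rapamycin it was 2.35 ± 0.38 (edgeR adjusted p = 0.0543), past no threshold. In late-gene cells Tesc stood at 20.8 and 28.5 CPM in tamoxifen with rapamycin mice, 6.57 and 6.38 CPM in late rapamycin mice, and 8.02 and 11.2 CPM in tamoxifen mice, again without overlap of the tamoxifen with rapamycin mice. In Elane-high cells it was at most 2.83 CPM in every mouse. The call was lost with DESeq2 (adjusted p = 0.45), in edgeR without the day block (adjusted p = 0.104) and without members that held genes of other cell types (edgeR adjusted p = 0.08), at log2 fold changes of 3.27, 3.22 and 3.12. Without those members Tesc stood at 57.9 and 59.0 CPM in tamoxifen with rapamycin mice, 12.3 and 11.01 CPM in late rapamycin mice, and 4.13 and 8.69 CPM in tamoxifen mice.

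Other genes with small p in this comparison passed no threshold. Rnf144a, a ubiquitin ligase, stood at 162 and 170 CPM in tamoxifen with rapamycin mice, at 161 and 76.0 CPM in late rapamycin mice, and at 72.7 and 62.6 CPM in tamoxifen mice (log2 fold change against tamoxifen 1.35 ± 0.30, edgeR adjusted p = 0.708). In late-gene cells it stood at 352 and 374 CPM, 211 and 262 CPM, and 238 and 242 CPM in the same order of treatments. Pttg1, the anaphase inhibitor securin, stood at 33.1 and 32.4 CPM in tamoxifen with rapamycin mice, 10.3 and 11.4 CPM in late rapamycin mice, and 8.65 and 10.7 CPM in tamoxifen mice (log2 fold change 1.76 ± 0.48, edgeR adjusted p = 1.0). In the G2/M list, which does not hold Pttg1, 6 of 24 tested genes lay above 0, with a median log2 fold change of -0.076, and 0 were called. Serpine2 (a protease inhibitor) was at 9.20 and 9.86 CPM, 13.2 and 26.1 CPM, and 36.3 and 33.3 CPM in the same order of treatments (log2 fold change -1.83 ± 0.48, edgeR adjusted p = 1.0). Mecom had a log2 fold change of 1.61 and Adgrl4 one of 1.13, and Igkc had one of -4.26, Hbb-bs -4.73, Tnfrsf13b -2.08 and Ikzf3 -2.59 (edgeR adjusted p = 0.632 to 1.0). Tnfrsf13b stood at 14.7 and 4.23 CPM in tamoxifen with rapamycin mice, 89.2 and 18.1 CPM in late rapamycin mice, and 39.8 and 33.3 CPM in tamoxifen mice. The histone gene Hist1h2bn had a log2 fold change of 2.59 (edgeR adjusted p = 0.708). Mecom, a stem cell factor, was at 0 to 2.75 CPM in every mouse once the 95 members with genes of other cell types were left out, against 17.3 to 101 CPM with them. Adgrl4 then fell from 127 and 118 CPM to 19.95 and 19.67 CPM in tamoxifen with rapamycin mice. In tamoxifen mice it fell from 74.4 and 42.65 CPM to 26.8 and 11.6 CPM. Ikzf3 fell from 20.8 and 19.99 CPM to 4.13 and 4.35 CPM in tamoxifen mice, and Hbb-bs from 401 to 4.13 CPM in tamoxifen replicate 1. Mecom, Hbb-bs and Igkc are on the marker lists by which those 95 members were picked. A fall of these 3 genes was thus set in part in advance and is no evidence of where their RNA came from. Tnfrsf13b did not fall in tamoxifen mice, at 47.5 and 34.8 CPM, and Igkc stayed at 791 CPM in tamoxifen replicate 2.

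Late rapamycin against tamoxifen gave 0 called genes (0%), with 404 (5.75%) at an unadjusted edgeR p under 0.05 and 0 by DESeq2. The genes with the smallest p, Arhgap24, Pim1, Tpd52 and Il1r2 above 0 and Sntb1 and Lta4h below, had edgeR adjusted p of 0.249 to 0.309. Mecom, Igkc, Bach2 and Hbb-bs, with the same range of adjusted p, are genes of other cell types. Arhgap24 stood at 98.0 and 3.4 CPM in late rapamycin mice and at 10.4 and 2.67 CPM in tamoxifen mice, so late rapamycin replicate 1 set its value. Pim1, a survival kinase induced by cytokines, stood at 243 and 64.7 CPM in late rapamycin mice and at 41.5 and 30.7 CPM in tamoxifen mice. Without the members that held genes of other cell types Pim1 stood at 221 and 23.4 CPM in late rapamycin mice and at 24.8 and 21.7 CPM in tamoxifen mice, so replicate 1 alone stood above. Il1r2, the interleukin 1 decoy receptor, stood at 174 and 45.4 CPM in late rapamycin mice and at 41.5 and 28.0 CPM in tamoxifen mice. Lta4h, the enzyme that makes leukotriene B4, was below tamoxifen in both mice, at 264 and 412 CPM in late rapamycin mice and 685 and 648 CPM in tamoxifen mice (log2 fold change -0.95 ± 0.23, edgeR adjusted p = 0.309).

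With late rapamycin replicate 2 left out, so that replicate 1 stood alone and was assumed to vary like the others, edgeR called 204 genes higher (2.73% of 7470) and 123 lower (1.65%). With replicate 1 left out it called 3 higher (0.04% of 7497) and 5 lower (0.0667%). Among the called genes of replicate 1 were 5 of 16 tested late neutrophil genes (Cxcr2, Il1f9, Mxd1, Ifitm6 and Stfa2l1) and 6 of 16 receptor genes (Il1r2, Fcgr4, Fcgr3, Tlr4, Csf2rb2 and Csf2rb), all higher. Hp, Prtn3, Ctsc, Ms4a3, Cebpb, Junb, Ifitm3 and S100a6 were called higher too, and Orm1 and Olfm4 lower. None of 24 G2/M genes and none of 18 S phase genes was called. These calls describe 1 mouse against the tamoxifen mice.

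Tamoxifen with rapamycin against late rapamycin gave 0 called genes (0%), with 409 (5.83%) at an unadjusted edgeR p under 0.05 and 0 by DESeq2. Ctse (cathepsin E, an aspartic protease) came nearest beside Tesc. It stood at 114 and 74.6 CPM in tamoxifen with rapamycin mice, at 29.9 and 23.8 CPM in late rapamycin mice, and at 58.8 and 50.6 CPM in tamoxifen mice (log2 fold change against late rapamycin 1.76 ± 0.27, edgeR adjusted p = 0.0543). The 3 treatments did not overlap in Ctse. In late-gene cells it stood at 255 and 264 CPM in tamoxifen with rapamycin mice, 67.1 and 206 CPM in late rapamycin mice, and 199 and 199 CPM in tamoxifen mice. In Elane-high cells it was at 45.4 and 58.6 CPM, 6.12 and 14.9 CPM, and 15.5 and 19.0 CPM in the same order of treatments. Igfbp4, Airn and Tango6 had log2 fold changes of 1.45, 1.99 and 1.51, and Tnfrsf13b, Lipg and AI506816 had -2.52, -3.79 and -1.30, with edgeR adjusted p between 0.336 and 0.611. Calr and Manf serve protein folding in the endoplasmic reticulum. Both genes had lower values in both tamoxifen with rapamycin mice than in late rapamycin mice, without passing the test. Calr stood at 75.5 and 77.5 CPM against 152 and 147 CPM, and Manf at 38.7 and 45.1 CPM against 93.6 and 82.8 CPM. In tamoxifen mice Calr stood at 145 and 94.6 CPM and Manf at 58.8 and 45.3 CPM. Without late rapamycin replicate 2 this comparison had 128 genes called higher (1.71%) and 187 called lower (2.5%) in edgeR, and without replicate 1 it had 5 (0.0667%) and 3 (0.04%). In the fit without replicate 2, 30 of 83 ribosomal protein genes were called lower.

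Among the role lists no gene was called in any comparison. For tamoxifen with rapamycin against tamoxifen the median log2 fold change was 0.036 over 8 secondary granule genes, -0.13 over 5 primary granule genes, -0.14 over 10 early precursor genes, -0.13 over 18 S phase genes, -0.014 over 14 late genes and 0.064 over 6 oxidase genes, beside -0.0073 over all 7021 genes. Serpinb1a is among those 5 primary granule genes. The 18 tested mTOR genes had medians of 0.0069 in that comparison, -0.052 for late rapamycin against tamoxifen and 0.14 for tamoxifen with rapamycin against late rapamycin. Eif4ebp1, the translation inhibitor that mTORC1 phosphorylates, stood at 69.9 and 83.1 CPM in tamoxifen with rapamycin mice, 76.5 and 54.5 CPM in late rapamycin mice, and 60.6 and 60.0 CPM in tamoxifen mice. For late rapamycin against tamoxifen, the heat shock list had 8 of 10 tested genes above 0 with a median of 0.43, glycolysis 11 of 13 with 0.30, and the receptor list 11 of 14 with 0.32. Without late rapamycin replicate 1 these medians were 0.46, -0.020 and -0.22, so the heat shock list alone of the 3 kept its value. For tamoxifen with rapamycin against tamoxifen the same 3 lists had 5 of 10, 8 of 13 and 7 of 14 above 0, with medians of -0.018, 0.074 and -0.025. The medians of the transcription factor, cyclin and inhibitor, S100 and lysozyme, and interferon response lists in that comparison lay between -0.072 and 0.070.

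The UMI shares of the primary granule, early precursor, late, S phase and G2/M lists were compared between mice in 15 tests, with exact permutation p of 0.33 to 1.0.

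No cholesterol synthesis gene passed the test in any comparison of all 6 mice. For tamoxifen with rapamycin against tamoxifen, 11 of 11 tested genes lay above 0, with a median log2 fold change of 0.54, and 0 were called. The 18 genes of the list summed to 456 and 352 CPM in tamoxifen with rapamycin mice, 613 and 344 CPM in late rapamycin mice, and 304 and 257 CPM in tamoxifen mice, so in the sum the 4 rapamycin mice lay above both tamoxifen mice. Single genes varied, and Msmo1 stood at 38.6 and 28.2 CPM in tamoxifen with rapamycin mice and at 43.2 and 19.99 CPM in tamoxifen mice. Idi1, an isomerase of the pathway, stood at 29.5 and 25.4 CPM, 37.7 and 22.7 CPM, and 13.8 and 11.99 CPM in the same order (log2 fold change of tamoxifen with rapamycin against tamoxifen 1.11 ± 0.44, edgeR adjusted p = 1.0). Late rapamycin against tamoxifen had 11 of 11 above 0, with a median of 0.59, and 9 of 13 with a median of 0.27 without late rapamycin replicate 1. Both comparisons rest on the same 2 tamoxifen mice, so neither supports the other. In Elane-high cells the list summed to 514 and 434 CPM in tamoxifen with rapamycin mice, 631 and 401 CPM in late rapamycin mice, and 398 and 360 CPM in tamoxifen mice. In late-gene cells it summed to 511 and 380 CPM, 742 and 345 CPM, and 363 and 265 CPM, and the treatments overlapped there.

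Ribosomal protein genes differed most in late rapamycin replicate 1. They made up 3.70% and 4.71% of member UMIs in tamoxifen with rapamycin mice, 6.72% and 4.95% in late rapamycin mice, and 4.96% and 4.35% in tamoxifen mice. For late rapamycin against tamoxifen 83 of 83 tested genes lay above 0, with a median log2 fold change of 0.38, and 0 were called. Without late rapamycin replicate 1, 49 of 83 lay above 0, with a median of 0.029. For tamoxifen with rapamycin against tamoxifen 70 of 83 lay below 0 (median -0.095; -0.33 on day 1 and 0.095 on day 2). Against late rapamycin 83 of 83 lay below 0 (median -0.47), and 14 of 83 lay above 0 (median -0.14) without late rapamycin replicate 1. Without the members that held genes of other cell types the share was 3.26% and 3.78% in tamoxifen with rapamycin mice, 5.94% and 3.72% in late rapamycin mice, and 3.70% and 3.91% in tamoxifen mice.

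**Figure D5:**
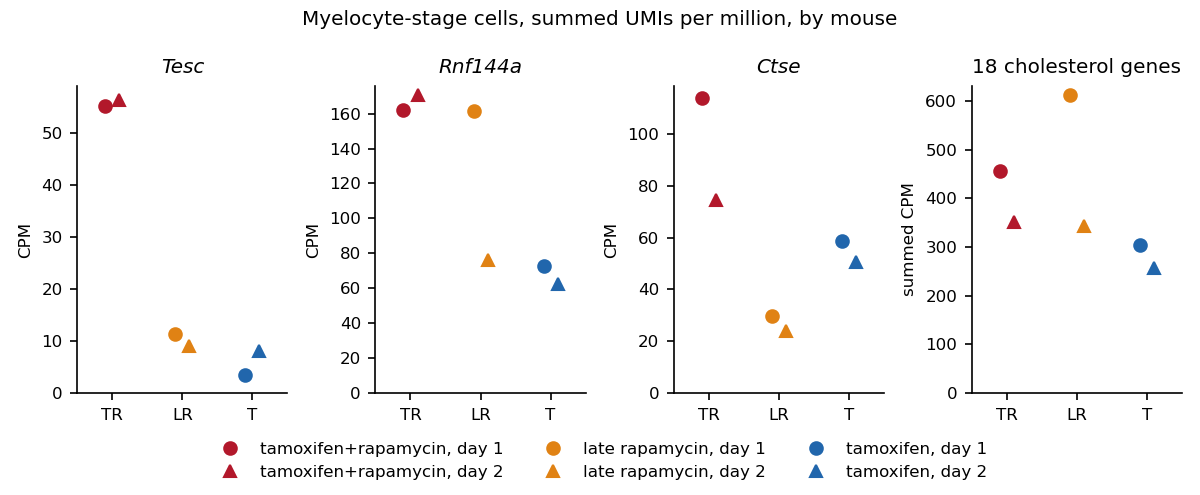
CPM in myelocyte-stage cells, 1 point per mouse, for Tesc, Rnf144a, Ctse and the sum of 18 cholesterol genes, each axis starting at 0. TR is tamoxifen with rapamycin, LR late rapamycin and T tamoxifen. Both TR mice lie above all others for Tesc and Ctse, and Tesc is the gene called against T.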

How the data were processed

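Single-cell RNA and hashtag libraries came from bone marrow of 6 mice pooled by day, made with Chromium 3' v3 and TotalSeq B hashtags per the labels' protocols. The authors deposited UMI counts per gene and barcode, 1 matrix per day. Per the submitters' processing notes Cell Ranger 7.0.0 and mm10 were used, and per the file headers the matrices were written by Cell Ranger 8.0.1. Whether intronic reads were counted is not given in the sources used here.

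Cells with at least 500 genes, at least 1000 UMIs, at most 10% mitochondrial UMIs and a top hashtag holding at least 80% of hashtag UMIs were kept, 19619 of 25058 barcodes on day 1 and 18098 of 21409 on day 2. The hashtag rule removes doublets between mice, and no doublet caller was run. Members' UMIs were summed per mouse and tested with edgeR 4.0.16 (TMM scaling, filterByExpr, quasi-likelihood test, day as block, all 3 treatments in 1 fit) in R 4.3.3, with DESeq2 1.42.0 as an alternative. The pipeline was tested on simulated data. For a single value the 2 mice of a treatment were set against the 2 of another in an exact permutation test (two-sided), whose smallest p is 0.33. Counting used Python 3.11.15, numpy 2.4.6, scipy 1.17.1 and pandas 2.3.3. Same-day mice share a run by the study's own account. Their deviations from group means correlated by -0.046 for tamoxifen with rapamycin and tamoxifen, -0.009 for late rapamycin and tamoxifen, and 0.049 for tamoxifen with rapamycin and late rapamycin, over 7021 genes. Intervals cover counting error only.

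The members and gene lists were chosen with earlier results of these data known. Named genes are the 8 per direction with the largest fold change among called genes with 1 sign on both days, up to 5 more per direction with the smallest p where fewer than 10 passed, and, from each list, the 3 genes of lowest adjusted p. Predicted genes without a name are counted and not named. The rule for genes of a mouse that stands apart (at least 4-fold beyond all other 5 mice after adding 10 CPM, and at least 50 CPM) was chosen after seeing values. Alternatives were DESeq2, no day block, no filter on low counts, at least 5 Ltf UMIs, a hashtag share of at least 90%, a stricter cell filter, cells not thinned and each mouse left out. Members without 3 or more genes of another cell type, and the G2/M list without Hmgb2, were added after seeing the data.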

Additional observations from a re-analysis of the deposited data

How the results depend on the processing

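Calls between treatments rest on 2 mice each and on few UMIs per gene. In edgeR the counts of called genes were 1 for tamoxifen with rapamycin against tamoxifen, 0 for late rapamycin against tamoxifen and 0 for tamoxifen with rapamycin against late rapamycin. In that order of comparisons they were 0, 0 and 0 with DESeq2, 0, 0 and 0 with no replicate block, 15, 93 and 71 with no filter on low counts, 1, 2 and 2 with a hashtag share of at least 90%, and 0, 0 and 1 without members holding genes of other cell types. The cause of these changes was not tested. Leaving out 1 mouse gave 10 to 17, 6 to 327 and 6 to 315 calls. For late rapamycin against tamoxifen there were 327 calls without late rapamycin replicate 2, 8 without replicate 1, 6 without tamoxifen replicate 1, 115 without tamoxifen replicate 2, and 71 without either tamoxifen with rapamycin mouse. For tamoxifen with rapamycin against late rapamycin there were 315 calls without late rapamycin replicate 2 and 8 without replicate 1.

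The log2 fold change of Tesc was 2.69 to 4.12 when 1 mouse was left out, with an edgeR call each time. In 4 of these fits 1 treatment of the comparison is a lone mouse, assumed to vary like the other groups, so they are no measure of stability. Of 580 refits of 49 named fold changes, 435 kept direction and side of the threshold, 138 newly passed it, 3 lost the call of Tesc and 4 reversed. When 1 mouse was left out, Hbb-bs for late rapamycin against tamoxifen ranged from -6.30 to 0.52, the high end without tamoxifen replicate 1. For tamoxifen with rapamycin against late rapamycin, Lipg ranged from -6.17 to 0.82 and Fdps from -1.58 to 0.27, the high end of each without late rapamycin replicate 1. Sc5d ranged from -0.13 to 0.86, the low end without tamoxifen with rapamycin replicate 2.

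The share of members with any G2/M UMI differed by -0.09 percentage points between tamoxifen with rapamycin and tamoxifen, by -0.22 between late rapamycin and tamoxifen, and by 0.13 between tamoxifen with rapamycin and late rapamycin. It reversed to 0.60, 1.43 and -0.83 without thinning. The first 2 also reversed without Hmgb2, to 1.06 and 0.49, and without members holding genes of other cell types, to 0.29 and 0.061. Nearly every member held such a UMI, so no direction is read from it. The share of members among kept cells ranged over -0.473 to 0.145, 0.0838 to 2.70 and -2.86 to -0.248 percentage points when 1 mouse was left out. DESeq2's size factors moved no mouse by more than 0.0082 on the log2 scale relative to TMM.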
